A study of Mus musculus with 2 samples.

Results

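The receptors through which the splanchnic nerve drives the adrenal medulla were followed here as 8 genes of the 55536 annotated genes in the quantification tables. They are 7 subunit genes of nicotinic acetylcholine receptors (Chrna3, Chrna4, Chrna5, Chrna7, Chrna9, Chrnb2 and Chrnb4) and Adcyap1r1, the gene of the PACAP receptor PAC1. They were chosen by symbol, and all 8 symbols matched 1 gene ID each. Total RNA was sequenced from adrenal glands of B6CASTF1/J females, an F1 hybrid of C57BL/6J and CAST/EiJ mice, at 10 days of age. The study holds 1 group with 2 libraries, replicate 1 and replicate 2, each from 300 ng of RNA with ribosomal RNA reduced and ERCC spike-ins added. No treatment, transgene or deletion is named for either library, and the mice come with no other group for contrast. The labels number the libraries as biological replicates and list separate tissue samples, yet other fields repeat the same female and the same donor for both. Whether the 2 values stand for separate animals is therefore not settled. Every SD below measures only the spread between these libraries, which may be technical. The p-values that compare the libraries cover counting error only.

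Chromaffin cells of the medulla release catecholamines when preganglionic splanchnic axons release acetylcholine and the neuropeptide PACAP onto them. Nicotinic receptors are ion channels of 5 subunits. Alpha3 and beta4 subunits, with or without alpha5, form the ganglionic type that carries fast transmission at chromaffin cells and autonomic neurons, alpha4 with beta2 forms the most common type in brain, and alpha7 and alpha9 can form channels without beta subunits. PAC1 is a G protein-coupled receptor that raises cyclic AMP and calcium and sustains secretion during prolonged nerve activity.

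The libraries held 35287787 and 33068243 expected counts over annotated genes for replicates 1 and 2, and a count of 0 allows up to 0.0850 and 0.0907 CPM (counts scaled to the library total). Levels are in TPM, a share of all transcripts that is scaled for length. All 12 chromaffin markers and all 8 cortex markers, which define the labelled tissue, reached 1 TPM in both libraries. RNA of neighbouring tissues was unequal between them. The 8 liver markers summed to 5335 and 1032 TPM in replicates 1 and 2, the 8 skeletal muscle markers to 3452 and 1155 TPM, and the 8 kidney markers to 0.980 and 225 TPM. The 6 brown fat markers were closer between the libraries and high in both, with sums of 3158 and 3758 TPM.

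The receptor genes were expressed at low to middling levels, and Adcyap1r1 was the most abundant in both libraries. Of the 8 genes, 6 were detected, meaning 1 TPM or more in each library, beside 58.1% of nuclear protein-coding genes and 25.5% of all annotated genes. Adcyap1r1, at 11.2 ± 1.48 TPM (SD, n = 2), ranked at percentile 73.0 of nuclear protein-coding genes and was the only one of the 8 above the median of detected protein-coding genes, 10.1 TPM. The order then ran Chrna7, Chrna3, Chrna4, Chrnb4, Chrnb2, Chrna5 and Chrna9. Only Chrna4 and Chrnb4 had ranges that overlapped among neighbours in this order, and Chrna3 and Chrna4 were nearly equal in replicate 2, at 3.91 and 3.87 TPM. In the other quantification, a second set of transcript estimates deposited for the same libraries, the ranges of Chrna3 and Chrna4 overlapped as well. The tissue is a mixture of cells, so fewer cells of a type and less RNA per cell cannot be told apart in these levels.

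**Figure D1:**
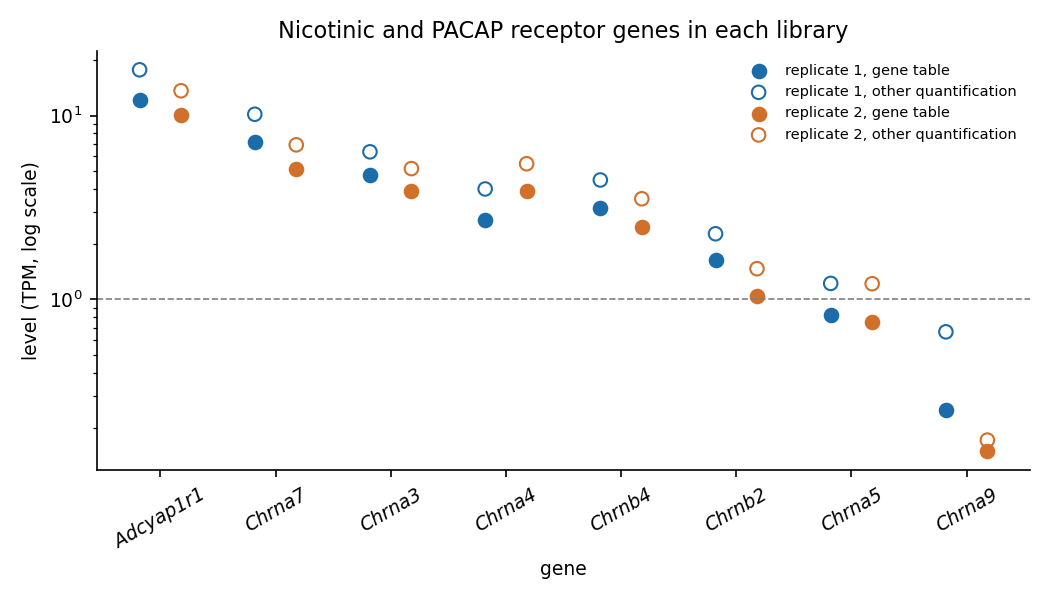
TPM (log axis) of each of the 8 receptor genes in replicate 1 (blue) and replicate 2 (orange), from the gene table (filled) and the other quantification (open); the dashed line is the detection limit of 1 TPM. Adcyap1r1 is highest in both libraries, Chrna5 lies at 0.82 and 0.75 TPM in the gene table but at 1.22 TPM in both libraries of the other quantification, and Chrna9 is lowest.

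Chrna3, Chrnb4 and Chrna5 are neighbours on chromosome 9 of mm10, within 67900 bases. Chrna5 (ENSMUSG00000035594.10, 54980880 to 55007779) lies on the plus strand. Chrna3 (ENSMUSG00000032303.7, 55010111 to 55026562) and Chrnb4 (ENSMUSG00000035200.7, 55028154 to 55048779) follow on the minus strand. The gaps of 2331 and 1591 bases leave the annotated genes without overlap.

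Chrna3, the agonist-binding subunit of the ganglionic receptor, stood at 4.78 TPM in replicate 1 and 3.91 TPM in replicate 2, from 586 and 430 counts. Chrnb4, its beta partner, stood at 3.15 and 2.49 TPM, from 384 and 282 counts. Both genes were higher in replicate 1, and by nearly the same factor. The level of Chrnb4 relative to Chrna3 was therefore steady, at ratios of 0.659 and 0.637, a log2 ratio of -0.63 ± 0.03 (SD, n = 2). Chrna5, the accessory subunit that joins alpha3 and beta4 but does not form channels alone, stood at 0.820 and 0.750 TPM, from 55 and 47 counts. Its ratio to Chrna3 was 0.172 in replicate 1 and 0.192 in replicate 2, so Chrna5 lay below both neighbours in each library. The distance to Chrna3, a log2 ratio of -2.46 ± 0.11, was larger than the spread between the libraries.

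Transcripts of the cluster genes differed in how they ended and where they started. All Chrnb4 reads were assigned to its single annotated transcript. Chrna3 was divided between a form of 6 exons (ENSMUST00000034851.5), with 68.2% and 61.8% of the gene's TPM in replicates 1 and 2, and a form of 5 exons (ENSMUST00000214204.1), with 31.8% and 38.2%. The shorter form reads on from its last shared exon into the following intron and ends there, and its annotated coding length is 1428 bases against 1512. In the other quantification the shorter form took 21.2% and 28.9%, so the longer form was the larger one in both. For Chrna5, a form of 3 exons (ENSMUST00000217408.1) took 51.1% and 51.6% of the TPM and a form of 6 exons (ENSMUST00000213960.1) took 48.9% and 48.4%. The 6-exon form has a coding length of 1401 bases, and the 3-exon form, which lacks exons of 152, 45 and 110 bases, has 1089. These shares rest on at most 33.0 expected counts per transcript, and the other quantification gave the 6-exon form 2.32% in replicate 1 and 41.6% in replicate 2.

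The Chrna5 forms begin at different places, so the 250 bases before each start that RefSeq gives (GRCm38.p6, plus strand) are shown, with GC boxes (GGGCGG on either strand) in capitals. The upstream window, chr9:54980630-54980879, ends just before the start of another Chrna5 form (ENSMUST00000093844.4). The downstream window, chr9:54981238-54981487, ends between the annotated starts of the 3-exon form at 54981466 and the 6-exon form at 54981533.
Chrna5 upstream start: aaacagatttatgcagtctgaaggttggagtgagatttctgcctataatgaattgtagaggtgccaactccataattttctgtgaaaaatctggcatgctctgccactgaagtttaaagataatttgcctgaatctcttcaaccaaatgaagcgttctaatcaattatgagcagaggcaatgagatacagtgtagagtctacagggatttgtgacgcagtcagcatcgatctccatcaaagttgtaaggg
Chrna5 downstream start: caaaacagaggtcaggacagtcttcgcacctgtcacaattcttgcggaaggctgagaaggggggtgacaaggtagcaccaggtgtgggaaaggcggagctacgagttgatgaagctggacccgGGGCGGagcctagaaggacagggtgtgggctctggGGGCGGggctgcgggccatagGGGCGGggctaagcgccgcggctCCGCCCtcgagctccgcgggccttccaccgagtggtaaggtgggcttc
The upstream window has 40.0% G and C bases and no GC box. The downstream window has 65.2% and 4 GC boxes, where 32.7% of 32851 promoter windows of the same length hold at least 1 and the median G and C content is 52.4%. The form of the upstream start was listed at 0 in both libraries of the main quantification. In the other quantification it took 37.4% of Chrna5 TPM in replicate 1 and was listed at 0 in replicate 2, so its share was not steady at this depth. Neither window holds a cyclic AMP response element (TGACGTCA, its own reverse complement, in 1.55% of windows) or a TATA box (TATAAA on either strand, in 12.4%).

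Chrna4 and Chrnb2, the alpha4 and beta2 subunits of the main brain type, went opposite ways between the libraries. Chrna4 (ENSMUSG00000027577.14, chromosome 2, 181018380 to 181043546, minus strand) stood at 2.70 TPM in replicate 1 and 3.87 TPM in replicate 2, from 406 and 541 counts. Chrnb2 (ENSMUSG00000027950.7, chromosome 3, 89746195 to 89764632, minus strand) stood at 1.64 and 1.05 TPM, from 344 and 206 counts. Chrna4 exceeded Chrnb2 in both libraries, with ratios of 1.65 and 3.69, so the direction held but the size did not. In the main quantification, 4 of the 5 annotated Chrna4 transcripts were at 0 in both libraries and a single form took every count. The main Chrnb2 form took 97.3% of the gene's TPM in replicate 1 and all of it in replicate 2. Chrnb2 overlaps exons of Adar, an RNA-editing enzyme gene on the opposite strand at 8.35 and 7.44 TPM, over 1365 bases or 16.3% of the Chrnb2 exon bases. The library kit keeps the strand per the labels, but no source used here states whether the counting did, so the Chrnb2 level is uncertain by that overlap. Chrnb2 relative to Chrnb4 had a log2 ratio of -1.09 ± 0.22 (SD, n = 2), and was below it in both libraries.

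Chrna7, whose product forms homomeric channels with high calcium permeability, was the most abundant nicotinic subunit gene. It lies on chromosome 7 from 63098692 to 63212569 (ENSMUSG00000030525.8, minus strand) and stood at 7.17 TPM in replicate 1 and 5.14 TPM in replicate 2, from 487 and 321 counts. Relative to Chrna3 it had a log2 ratio of 0.58 and 0.39, above it in both libraries. The coding form of 10 exons took 94.7% and 97.7% of the TPM, and the rest went to a form of 5 exons with no annotated coding sequence. Macrophages also express alpha7. The 8 macrophage markers, all detected, ran from 1.72 to 34.9 TPM and summed to 87.5 and 72.5 TPM, and their part in the Chrna7 level was not tested.

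Chrna9, known from cochlear hair cells and also described in chromaffin tissue, was close to the limit of these libraries. It lies on chromosome 5 from 65934921 to 65977326 (ENSMUSG00000029205.12, plus strand) and stood at 0.250 and 0.150 TPM, from 13 and 5 counts. Its usual partner Chrna10 had 1 and 0 counts, under the limit of 3. Chrna9 was listed at 0.667 and 0.172 TPM in the other quantification. The low level did not pass 1 TPM in any library or quantification.

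Adcyap1r1 (ENSMUSG00000029778.12, chromosome 6, 55451978 to 55501451, plus strand) stood at 12.2 TPM in replicate 1 and 10.1 TPM in replicate 2, from 1872 and 1393 counts. Relative to Chrna3 it was 2.55 and 2.59 times as high, a log2 ratio of 1.36 ± 0.01 (SD, n = 2). The log2 ratio was 1.48 and 1.41 in the other quantification. The gene is known for cassette exons in an intracellular loop of the receptor, called hip and hop, which alter its coupling to cyclic AMP and calcium. The exon sequences on mm10 are shown because the transcripts are sorted by them. Hip lies at chr6:55487659-55487742 and hop1 at chr6:55491227-55491310. Hop2 begins 3 bases into hop1, and capitals mark the bases of hop1 that hop2 lacks.
hip: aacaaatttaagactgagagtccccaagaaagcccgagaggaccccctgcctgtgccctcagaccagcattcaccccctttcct
hop1: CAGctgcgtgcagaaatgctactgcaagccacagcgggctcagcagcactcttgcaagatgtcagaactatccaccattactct
hop2: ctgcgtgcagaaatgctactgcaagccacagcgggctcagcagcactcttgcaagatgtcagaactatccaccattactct
Hip and hop1 are each 84 bases, or 28 codons, and lie in annotated coding sequence. Aligned without gaps, they are identical at 26 of 84 positions.

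Transcripts without a cassette made up most of the Adcyap1r1 RNA that spans this site. They took 72.8% in replicate 1 and 73.9% in replicate 2, or 73.4% ± 0.782 (SD, n = 2). Hop1 transcripts took 17.8% and 17.6%, hop2 transcripts 8.26% and 6.96%, and a transcript with both hip and hop1 took 1.10% and 1.44%. The transcript with hip alone was listed at 0 in both libraries of both quantifications. The 2 libraries thus gave nearly the same division, with a summed cassette share of 26.6% ± 0.782. In the other quantification the form without a cassette took 61.3% and 60.7%, and hop1 22.5% and 26.3%. The transcript with both hip and hop1 took a larger share there, 5.39% and 6.35%. The quantification moved the share without a cassette by more than the library did. The hop2 share was 10.8% and 6.70% there, further apart between libraries than in the main quantification. The form without a cassette was the largest and hop1 the second in all 4 cases.

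The annotated forms also differ outside the cassettes. The last exon is 4469 bases in the main form without a cassette (ENSMUST00000070756.11), 1923 in the hop1 form (ENSMUST00000070736.11) and 446 in the hop2 form (ENSMUST00000165786.1). Reads in that exon enter the estimates, so the shares are not a count of reads over the cassette junctions. A second form without a cassette (ENSMUST00000172084.7), which also lacks exons of 21 and 42 bases, stood at 0.280 TPM in replicate 1 and was listed at 0 in replicate 2. The other 2 annotated forms do not span the cassette site and were left out of the shares.

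**Figure D2:**
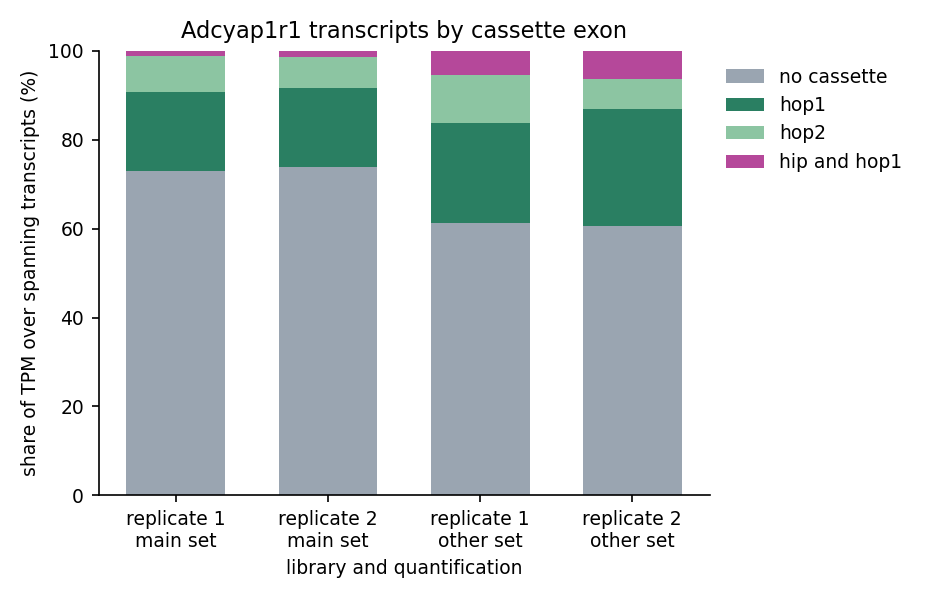
Share of TPM (percent, stacked bars) over Adcyap1r1 transcripts that span the cassette site, by cassette, for each library in the main quantification and in the other one. The form without a cassette takes 72.8% and 73.9% in the main set and 61.3% and 60.7% in the other, and the hop1 share is second in each bar.

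The remaining nicotinic subunit genes were mostly near 0. None of the 4 other neuronal genes (Chrna2, Chrna6, Chrna10 and Chrnb3) was detected. Chrna2 was the highest of them at 0.340 and 0.250 TPM, and Chrna6 had no count in either library. Of the 5 subunit genes of the muscle receptor, Chrnb1 was detected, at 2.60 and 1.65 TPM. Chrna1 had 76 and 8 counts, Chrnd 30 and 3, Chrne 22 and 1, and Chrng 9 and 2. All 16 subunit genes together came to 24.9 TPM in replicate 1 and 19.5 TPM in replicate 2. Of that sum, the 7 genes described above took 82.3% and 89.0%, and the chromosome 9 cluster alone took 35.1% and 36.6%. Chrna7 took 27.6% ± 1.71 (SD, n = 2) and Chrna4 10.8% and 19.8%. The muscle subunits took 16.3% and 9.69%, lower in replicate 2 like the skeletal muscle markers, and the part of muscle RNA in that share was not tested.

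**Figure D3:**
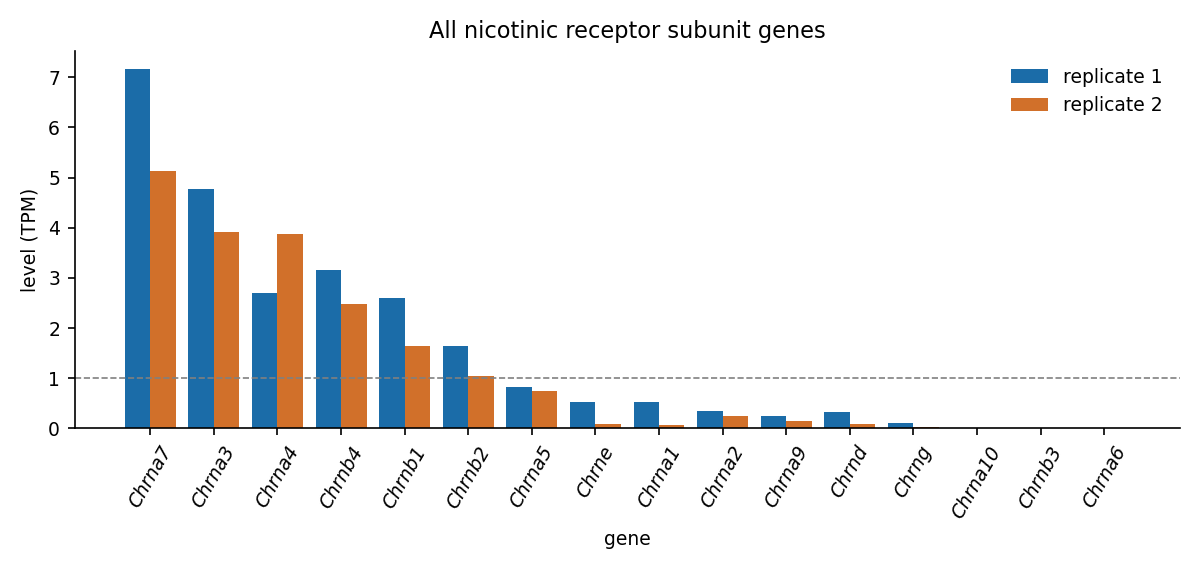
TPM (linear axis from 0) of all 16 nicotinic subunit genes in replicate 1 (blue) and replicate 2 (orange); the dashed line is 1 TPM. Chrna7 and Chrna3 lead in replicate 1, Chrna4 is the only one of the genes above 1 TPM that is higher in replicate 2, and the muscle subunit genes other than Chrnb1 lie under 1 TPM.

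Genes on the presynaptic side of the synapse were near 0. The cell bodies of preganglionic neurons lie in the spinal cord, outside the gland. Chat, which makes acetylcholine, had 2 and 0 counts, its vesicular transporter gene Slc18a3 had 9 and 3, and the choline transporter gene Slc5a7 had 6 and 4. Adcyap1, which encodes PACAP itself, had 3 counts in each library, and Vip, which encodes the related peptide VIP, had 13 and 7. The enzymes that end the signal were present. Ache, the acetylcholinesterase gene, stood at 7.04 and 4.84 TPM, and Bche, for butyrylcholinesterase, at 4.48 and 3.41 TPM. Of the esterase anchors, Prima1 stood at 1.04 and 1.35 TPM and Colq, which anchors the enzyme at muscle synapses, at 1.32 and 0.380 TPM. In all, 3 of the 7 acetylcholine genes were detected.

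The other receptors for the same transmitters were low. Of the 5 muscarinic receptor genes, Chrm3 alone was detected, at 1.00 and 1.46 TPM, with Chrm1 at 0.810 and 0.610 TPM and Chrm2 at 0.630 and 0.510 TPM. Neither VIP receptor gene was detected. Vipr1 stood at 0.910 and 0.260 TPM and Vipr2 at 0.220 and 0.180 TPM. By the listed TPM, Adcyap1r1 exceeded Vipr2 by 55.5 and 56.2 times and Vipr1 by 13.4 and 38.9 times. Vipr2 had only 22 and 18 counts, and Vipr1 105 and 39, so the sizes of these ratios are imprecise. The listed TPM of Vipr2 lay below the lower bounds deposited for it, 0.287 and 0.281 TPM. That of Vipr1 did so in replicate 2, where the lower bound was 0.346 TPM. The log2 ratio of Adcyap1r1 to Vipr2 was 5.69 and 5.09 in the other quantification. It was less even there than in the main one, at 5.79 and 5.81.

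Several genes that act on nicotinic receptors or below PAC1 had higher levels than the receptor genes. Of 8 assembly and Ly6-type genes, 7 were detected. Tmem35a, which encodes the chaperone NACHO for alpha7 assembly, stood at 23.5 and 28.2 TPM, and Ric3, another chaperone gene, at 5.01 and 4.27 TPM. The Ly6-type modulator genes Lynx1 and Ly6e stood at 29.5 and 25.5 TPM and at 103 and 112 TPM. Lypd6, Ly6h and Lypd1, of the same family, lay between 1.04 and 3.09 TPM. All 14 genes of the PAC1 signalling list were detected. The highest 4 were Gnas, the stimulatory G protein gene, at 2041 ± 44.0 TPM (SD, n = 2), Prkaca, a catalytic subunit gene of protein kinase A, at 104 ± 5.06 TPM, Rapgef4, the cyclic AMP sensor Epac2, at 51.7 ± 7.87 TPM and Itpr1, a calcium release channel gene, at 43.6 ± 9.56 TPM. These genes are active in many cell types.

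Most of the receptor genes were slightly higher in replicate 1. The libraries were compared by an exact two-sided binomial test on counts, with Benjamini-Hochberg adjustment over 18883 genes, which covers counting error between these 2 libraries and not variation among animals. No receptor gene passed both an adjusted p of 0.05 and a 2-fold difference, which 6.85% of all genes tested did. Without adjustment, 6 of the 7 tested receptor genes passed p of 0.05, as did 6521 of the 18883 genes tested. At the adjusted p alone, 6 of the 7 passed, beside 26.5% of all genes tested. Of the 7 tested, 5 passed toward replicate 1, beside 12.5% of all genes tested, and 1 toward replicate 2, beside 14.0%. Among the 5007 genes that passed, 2357 were higher in replicate 1 and 2650 in replicate 2. Chrna9 had too few counts to be tested.

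Chrnb2 was higher in replicate 1 by a log2 ratio of -0.58 for replicate 2 over replicate 1 (95% interval -0.84 to -0.33, exact binomial adjusted p = 3.13e-05). Chrna7 was 1.36-fold higher there (1.18 to 1.57, adjusted p = 0.000127). Chrna3 was 1.22-fold higher there (1.08 to 1.39, adjusted p = 0.00766), Chrnb4 1.22-fold (1.05 to 1.43, adjusted p = 0.0410) and Adcyap1r1 1.21-fold (1.12 to 1.29, adjusted p = 1.08e-06). Chrna4 was the exception, 1.48-fold higher in replicate 2 (1.30 to 1.69, adjusted p = 1.85e-08). Chrna5 had a log2 ratio of -0.07 with an interval from -0.66 to 0.52, which takes in the ratios of the other genes except Chrna4. The Chrnb4 call was lost without the filter on low counts, at an adjusted p of 0.0596, and in the other quantification, at 0.0828.

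The median log2 ratio of the 7 tested receptor genes was -0.29, beside -0.01 over all genes tested. The 8 neuron markers, summing to 117.3 TPM in replicate 1 and 88.8 TPM in replicate 2, had a median of -0.31. Of these, 7 passed the adjusted p toward replicate 1. The most abundant were Stmn2 at 33.9 and 26.7 TPM, Tubb3 at 24.7 and 17.1 TPM and Prph at 19.5 and 13.2 TPM. The 12 chromaffin markers summed to 1110 and 1070.3 TPM and had a median of -0.09, with 6 past the adjusted p toward replicate 1 and 2 toward replicate 2. Pnmt, the adrenaline-forming enzyme gene, was 1.45-fold higher in replicate 2, the direction of Chrna4, and the kidney markers were higher there as well. The Schwann cell and macrophage lists also had medians below 0, of -0.23 and -0.20, with 6 of 8 markers higher in replicate 1 in each. At the adjusted p, 2 Schwann cell markers passed toward replicate 1 and 2 toward replicate 2, and the list summed to 51.0 and 51.9 TPM. Of the macrophage markers, 2 passed toward replicate 1 and 0 toward replicate 2. The cortex and brown fat lists had medians of 0.10 and 0.26, with 7 of 8 and 6 of 6 markers higher in replicate 2. The 8 liver markers had a median of -2.29, and each was higher in replicate 1. Of the 8 skeletal muscle markers 7 were higher there, with a median of -1.57, and 1, Myh4, was higher in replicate 2. The part of any of these tissues in the receptor differences was not tested.

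Chrna3, Chrnb4 and Adcyap1r1 were also set against Th, and Chrna3 and Adcyap1r1 against Stmn2, while no such ratio was computed for the other receptor genes. Chrna3 relative to Th, the tyrosine hydroxylase gene of catecholamine cells, had a log2 ratio of -4.80 in replicate 1 and -4.95 in replicate 2, Chrnb4 relative to Th -5.40 and -5.60, and Adcyap1r1 relative to Th -3.45 and -3.58. Relative to Stmn2, a gene of neurons and neuroblasts, Chrna3 had -2.83 and -2.77 and Adcyap1r1 -1.47 and -1.40. The SDs of these ratios ran from 0.04 to 0.14 on the log2 scale. An exact sign-flip test over 2 libraries cannot go below p = 0.5, so none was run on the ratios.

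Among the pathway lists, larger differences came from low genes. Chrne was 13.5-fold higher in replicate 1 (95% interval 3.19 to 815, exact binomial adjusted p = 7.52e-05), from 22 and 1 counts. Chrna1 was 8.08-fold higher there (4.11 to 20.5, adjusted p = 1.89e-12) and Chrnd 7.82-fold (2.79 to 46.0, adjusted p = 3.52e-05). Colq was 4.07-fold higher there (2.66 to 6.64, adjusted p = 6.33e-12) and Vipr1 2.40-fold, from 105 and 39 counts. These differences had the direction of the liver markers and of 7 of the 8 skeletal muscle markers. The part of those tissues in them was not tested. Ache and Bche were 1.42-fold and 1.25-fold higher in replicate 1. Tmem35a and Ly6e, by contrast, were 1.24-fold and 1.15-fold higher in replicate 2. Of the 14 PAC1 signalling genes 1 passed the adjusted p toward replicate 1 and 4 toward replicate 2, with a median of 0.03.

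**Figure D4:**
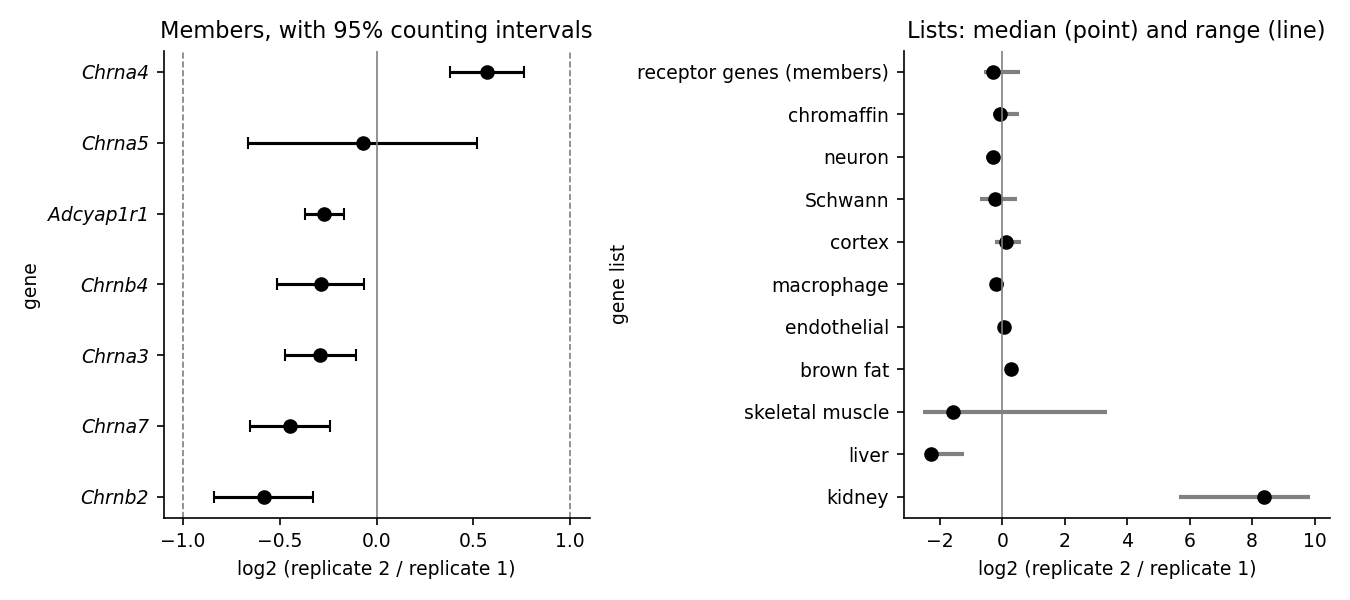
Left, log2 ratio of replicate 2 to replicate 1 for the 7 tested receptor genes, with 95% counting intervals, and dashed lines at a 2-fold difference; right, the median (point) and range (line) of the same ratio for the receptor genes and for cell type marker lists. All receptor genes lie within 2-fold, and Chrna4 is the only one above 0. The receptor median is -0.29, with a range from -0.58 to 0.57. The list medians nearest to it are those of the neuron (-0.31), Schwann (-0.23) and macrophage (-0.20) markers. The chromaffin (-0.09), endothelial (0.06), cortex (0.10) and brown fat (0.26) medians lie above these, while the liver, skeletal muscle and kidney lists lie further out.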

How the data were processed

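Adrenal glands of 1 group were measured in 2 libraries. The authors deposited, for each, a gene table and a transcript table with the column names of RSEM, which hold expected counts, TPM and FPKM, credibility bounds of TPM (a signal range) and, for transcripts, their percent of the gene total. They also deposited a transcript table with the column names of kallisto, which holds estimated counts and TPM and is called the other quantification. The labels name mm10 as the assembly, and the gene IDs match annotation M21. Aligner, quantifier, strand setting and handling of CAST/EiJ variants: not given in the sources used here.

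Symbols were read from the transcript names and joined by gene ID, and coordinates were taken from the M21 annotation, which held all 55536 gene IDs. A further 26248 features with a bare number as ID and 97 spike-ins stayed out of library sizes and tests, but the deposited TPM is scaled over them. Expected counts were rounded and scaled with TMM (edgeR 4.0.16, R 4.3.3). Genes that reached 20 counts over both libraries entered the exact binomial test, with a prior count of 0.5 in log2 ratios and Clopper-Pearson 95% intervals, in Python 3.11.15 with scipy 1.17.1. The quasi-likelihood test of edgeR needs a contrast, which 1 group does not offer. The binomial test was tested on simulated counts that held counting error only and were not scaled with TMM. That run therefore does not cover other variation between libraries. Intervals and the limit of 3 counts cover counting error only.

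The named genes are the 8 receptor genes, the members of the pathway lists of up to 8 genes, the 4 highest of the longer list and leading cell type markers; Myh4 was named after its value was seen. The members and lists were chosen with earlier results of these data known. With 2 libraries no likeness of patterns was measured. Alternatives were the other quantification, TPM over nuclear protein-coding genes, FPKM, DESeq2 1.42.0 size factors or total counts, other filters, detection limits and pseudocounts, and each library alone.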

Additional observations from a re-analysis of the deposited data

How the results depend on the processing

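The median level of the 8 receptor genes, 3.05 TPM, was 4.28 TPM in the other quantification, 9.16 TPM when scaled over nuclear protein-coding genes outside the mitochondrial genome and 2.87 as FPKM, so the levels are relative to what is counted. Of the 8 genes 6 were detected, 7 in the other quantification, with that rescaling or at a limit of 0.5 TPM, and 2 at a limit of 5 TPM. Each library alone gave 6. Over all genes, 1294 passed both limits between the libraries and 802 at a summed count of at least 100, where fewer genes are tested. No receptor gene passed both limits under any of the 5 alternatives, while 5 or 6 passed the adjusted p alone. The share of Adcyap1r1 without a cassette, 73.4%, was 61.0% in the other quantification, and the cause was not tested. In the ratios of receptor genes to each other and to markers no mean reversed. No paired analysis was possible because there is 1 group. Depth limits Chrna9 and the transcripts of Chrna5.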

Other observations

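The listed TPM of Chrna9 lay below its deposited credibility bounds. In replicate 1 the bounds ran from 0.375 to 1.27 and the TPM was 0.250, and in replicate 2 they ran from 0.265 to 1.15 and the TPM was 0.150. This was not particular to Chrna9. Vipr2 also lay below its bounds, at 0.220 TPM with bounds from 0.287 to 0.954 in replicate 1. In replicate 2 it stood at 0.180 TPM with bounds from 0.281 to 1.03. Some low genes lay inside their bounds, such as Chrna2 in replicate 1, at 0.340 TPM with bounds from 0.260 to 0.509.

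A short Adcyap1r1 form (ENSMUST00000166962.7), which does not span the cassette site, took 1.27% of the gene's TPM in replicate 1 and 12.4% in replicate 2, from 3.81 and 28.8 expected counts. In the other quantification it took 0.903% and 1.57%.

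In the 250 bases before the RefSeq starts of the other receptor genes, GC boxes number 3 for Chrna4, 1 each for Chrna3, Chrna7 and Adcyap1r1, and 0 for Chrnb4, Chrnb2 and Chrna9.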
